A study of Mus musculus with 4 samples.

Results

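Among the regions of open chromatin found in all 4 libraries of the mouse dentate gyrus, 1029 of 26592 (3.87%) stood higher in the score ranking of both libraries titled Mbd1 KO than in that of either library titled WT, by at least 10 percentile points. The same rule found 1080 regions (4.06%) higher in the titled WT pair, and between 975 and 1236 regions in the pairs that cross the titles. The 1029 regions, called KO-higher regions here, were chosen by the scores of these same 4 libraries, so their percentiles are given as a description and were not tested. Regions were made by joining summits that lay within 250 bp of the next, which gave 82899 regions in all, and a shared region had a summit in every library. In each library the shared regions were ranked by their highest summit score, from 0 for the weakest to 100 for the strongest. The gap of a region is the lower of its percentiles in Mbd1 KO 1 and Mbd1 KO 2 minus the higher of those in WT 1 and WT 2.

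FAIRE-seq, short for isolation of regulatory elements assisted by formaldehyde, sequences the DNA that stays in the aqueous phase when fixed, sonicated tissue is extracted with phenol and chloroform; such DNA carries few nucleosomes and is rich in promoters and enhancers. MBD1 recognises methylated CpG dinucleotides and takes part in gene silencing, and in the adult hippocampus it has been studied in neural stem cells. The dentate gyrus holds the granule neurons of the hippocampus and a niche where neurons are born in adult life.

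Both groups were C57BL6 mice around 9 weeks old with no treatment named, and each group had 2 libraries of 50-base single-end reads. The groups were WT and Mbd1 KO by title; how the Mbd1 allele was made, the sex of the mice, and whether a library came from 1 mouse or from pooled tissue is not stated in the labels. Any p-value therefore measures only the spread between these libraries, which may be technical. The labels conflict for 1 library of each group. WT 1 is called Mbd1 KO in its genotype field and Mbd1 KO 2 is called WT, while the title and the field are in accord for WT 2 and Mbd1 KO 1. Titles were used throughout, so every direction below is one between libraries as titled. The lists held between 38142 (WT 1) and 56382 (Mbd1 KO 1) summits, and read depth is not known from them.

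The number of KO-higher regions was first set against the same count for every other pair of libraries. The 1029 regions made up 3.87% of the shared regions, and the opposite titled direction made up 4.06%. With the groups of the genotype field, 1236 regions (4.65%) were higher in the pair called Mbd1 KO there, which is WT 1 with Mbd1 KO 1, and 1194 (4.49%) were higher in WT 2 with Mbd1 KO 2. The remaining way of parting the libraries gave 975 regions (3.67%) that were higher in WT 1 and Mbd1 KO 2, and 1008 (3.79%) that were higher in the other two. The share of the titled Mbd1 KO pair thus lay inside the range of the other 5. At a gap of at least 5 the count was 2005 against 1909 to 2329 for the other 5, and at a gap of at least 20 it was 231 against 224 to 302. A gap of at least 30 was reached by 39 KO-higher regions and by 33 to 72 regions in the other 5 counts. The widest gap, 42.2 points, was the smallest of the 6 maxima, which ran up to 57.9. All 6 counts come from the same 4 lists, so they are not independent of each other.

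**Figure D1:**
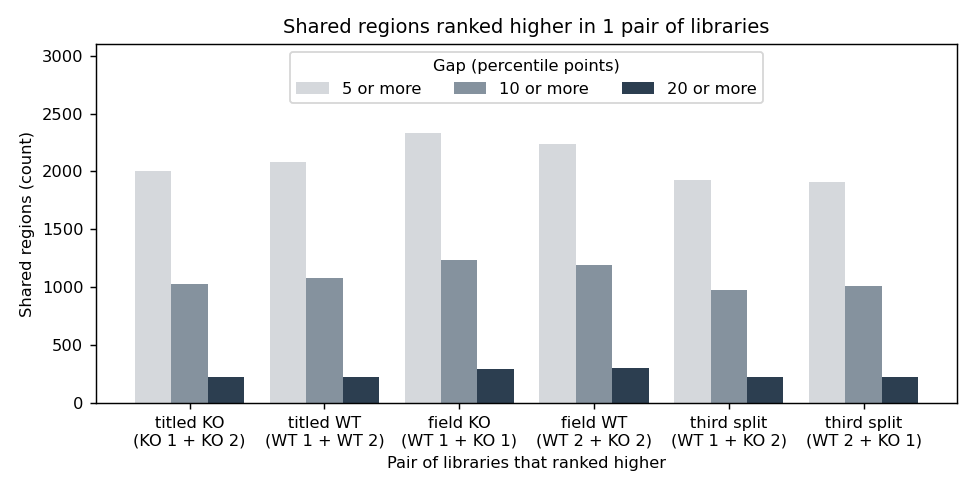
Number of shared regions (vertical axis) whose percentile was higher in both libraries of a pair than in both others, for each of the 6 pairs (horizontal axis) and 3 sizes of the gap (shades). The titled Mbd1 KO pair, at 1029 regions for a gap of 10, sits between the lowest count of 975 and the highest of 1236.

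KO-higher regions came from the middle and lower part of the shared ranking. In WT 1 their percentiles ran from 0.06 to 81.1 with a median of 25.6, and in WT 2 from 0.40 to 80.03 with a median of 25.9. Percentiles in Mbd1 KO 1 ran from 11.0 to 93.1 with a median of 53.9, and in Mbd1 KO 2 from 11.3 to 92.8 with a median of 54.4. Among the shared regions, the KO-higher regions were thus of low rank in the WT libraries and of middle rank in the Mbd1 KO libraries. By this ranking they were strong in neither. These ranks leave out the summits of each list that lie outside shared regions. The lower Mbd1 KO percentile was above 80 in 44 of them (4.28%, against 16.5% of all shared regions) and above 90 in 3 (0.292%, against 8.22%). In 111 (10.8%, against 4.76% of all shared regions) the higher WT percentile was below 10.

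**Figure D2:**
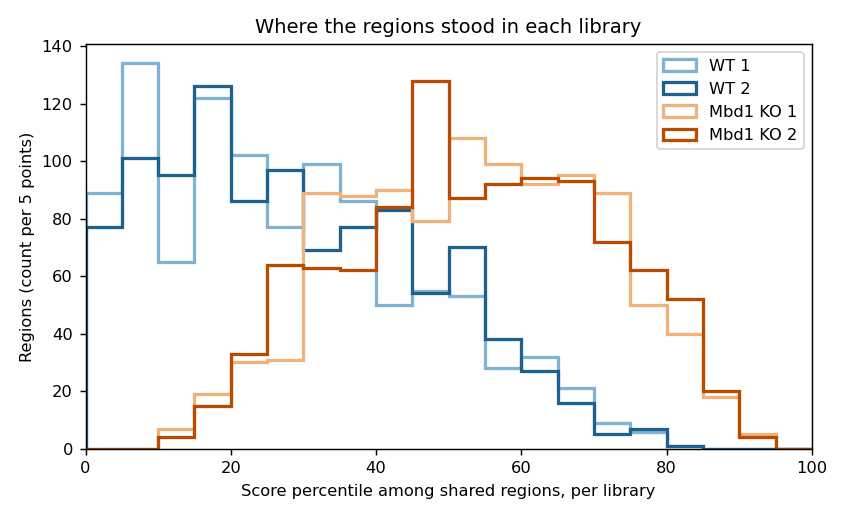
Score percentiles of the 1029 KO-higher regions (horizontal axis) in each library, as counts per 5 percentile points (vertical axis). The distributions of the WT libraries, with medians of 25.6 and 25.9, overlap those of the Mbd1 KO libraries, with medians of 53.9 and 54.4, although no single region overlaps by the rule that chose it.

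On the scale of the scores themselves, which are −log10 p or q values and depend on the depth of each library, the KO-higher regions had a median of 9.80 in WT 1, 10.4 in WT 2, 18.7 in Mbd1 KO 1 and 20.2 in Mbd1 KO 2. Over all shared regions the medians were 15.8, 15.9, 17.2 and 18.7 in the same order. Set against the median of its own library, the regions stood at 0.620 and 0.651 of it in WT 1 and WT 2 and at 1.09 and 1.08 of it in Mbd1 KO 1 and Mbd1 KO 2. These ratios follow from scores that chose the regions; the 6 sets made by the same rule all had a median mean percentile between 38.03 and 41.8, below that of all shared regions. A score of at least 10 in both Mbd1 KO libraries and in neither WT library was found for 366 of the 1029 (35.6%), against 795 of all shared regions (2.99%). This excess also follows from the scores that chose the regions, and it was not counted for the other pairs of libraries. In every library 421 of the 1029 (40.9%) reached 10, against 60.4% of all shared regions. Many low scores were tied: the most common score was shared by 674 regions (2.53%) in WT 1 and by 585 (2.20%) in each Mbd1 KO library, so percentiles moved in steps.

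Most gaps were small. The gap lay between 10 and 15 points for 513 regions (49.9%), between 15 and 20 for 285, between 20 and 25 for 137, and at 25 or more for the rest, of which 4 passed 40. Inside the titled groups, the distance between the Mbd1 KO percentiles of a region had a median of 5.90 points and that between its WT percentiles a median of 7.39. Over all shared regions these medians were 8.84 and 9.87. The smaller spread among the KO-higher regions is part of what the rule selects. Neither library of a group led throughout. Mbd1 KO 1 was above Mbd1 KO 2 in 478 of the 1029 (46.45%, against 50.07% of all shared regions). WT 1 was above WT 2 in 498 (48.4%, against 49.81%), so both shares were near those of all shared regions. The contrast of the genotype field holds only differences within the titles in regions chosen in this way: the mean of WT 1 and Mbd1 KO 1 minus the mean of WT 2 and Mbd1 KO 2 had a median of −0.48 points, with quartiles of −5.49 and 4.41, against a median of 0.0056 with quartiles of −6.87 and 6.83 over all shared regions. In the pair whose labels agree, Mbd1 KO 1 minus WT 2 had a median of 22.3 points, against 0.034 over all shared regions. The rule sets each such difference to at least 10, so this median follows from it. There is no replicate check, and the other pairs of Mbd1 KO and WT libraries had medians of 23.0 to 24.1.

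The region with the widest gap lay on chromosome 6 (93298356 to 93298390, mm9, 1-based). It stood at percentile 61.6 in Mbd1 KO 1 and 58.8 in Mbd1 KO 2, against 15.3 in WT 1 and 16.5 in WT 2, with scores of 21.8, 21.7, 7.88 and 8.45. Libraries of the same title were within 3 points of each other there, and the gap was 42.2 points. Its nearest shared region was 78.0 kb away and the nearest summit region of any library 7.10 kb away, so it was a single site and not the edge of a cluster.

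A region on chromosome 12 (77297756 to 77297780) came next, with percentiles of 56.0 and 60.6 in Mbd1 KO 1 and Mbd1 KO 2 and of 15.3 and 13.6 in WT 1 and WT 2. The third, on chromosome 15 (71721287 to 71721320), stood at 68.5 and 58.8 in the Mbd1 KO libraries and at 18.2 and 16.5 in the WT libraries. Both had a WT score under 9 and a Mbd1 KO score of 19.5 or more in each library. The fourth region, on chromosome 9 (51434429 to 51434516), had percentiles of 71.4 and 66.0 in the Mbd1 KO libraries but differed between the WT libraries, at 7.62 in WT 1 and 25.9 in WT 2. It was the region of the first 10 where the WT libraries lay furthest apart.

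On chromosome 11 a region (80286056 to 80286103) stood at 63.5 and 64.3 in the Mbd1 KO libraries and 24.3 and 22.7 in the WT libraries, a spread of under 2 points within either title. Another on the same chromosome (83809083 to 83809125) stood at 59.8 and 73.3 against 21.2 and 16.5, and there the Mbd1 KO libraries differed most among the 10. The last of the 10, on chromosome 16 (17542924 to 17543040), stood at 51.5 and 52.2 against 12.5 and 13.6. All 3 were of middle rank among the shared regions in the Mbd1 KO libraries.

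Of the 10 widest gaps, 4 were on chromosome 6, although that chromosome held 51 KO-higher regions among 1489 shared ones (3.43%), a share below the 3.87% of the genome. Beside the first region these were at 29706072 to 29706166, 25634550 to 25634626 and 30644400 to 30644424. The region at 25634550 had the lowest percentiles of the 10 in WT 1, WT 2 and Mbd1 KO 2, with 57.2 and 48.7 in Mbd1 KO 1 and Mbd1 KO 2 and 3.16 and 9.98 in WT 1 and WT 2. At 29706072 the percentiles were 61.6 and 64.3 against 18.2 and 22.7, and at 30644400 they were 64.5 and 71.5 against 16.5 and 25.9. The site at 30644400 had another shared region 567 bp away, and the site at 29706072 had one 2471 bp away; both neighbours fell short of the gap of 10.

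**Figure D3:**
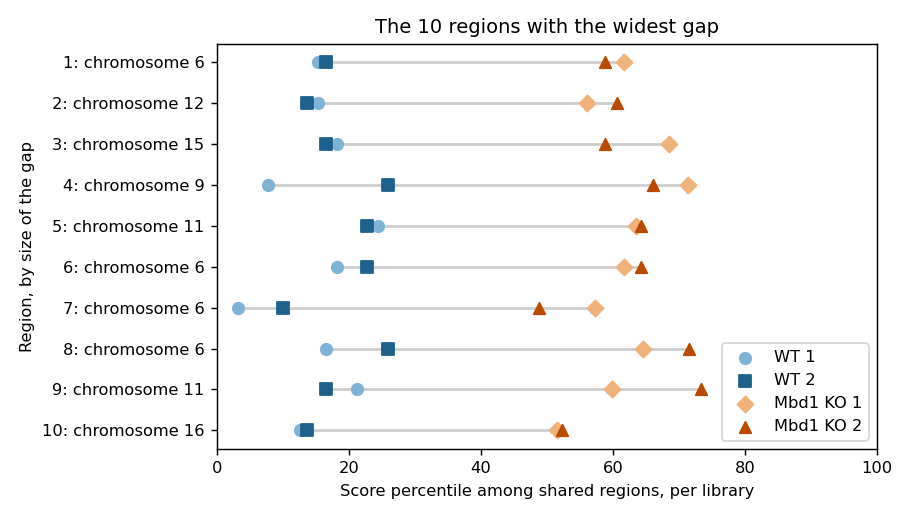
Score percentile (horizontal axis) of the 10 KO-higher regions with the widest gap (vertical axis, in order of the gap), with 1 symbol per library. Both WT symbols lie at 25.9 or below and both Mbd1 KO symbols at 48.7 or above in every row; the regions were chosen for this separation.

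The strongest KO-higher regions had gaps near the lowest that the rule admits. A region on chromosome 1 (174563215 to 174563241) stood at 93.1 and 92.1 in Mbd1 KO 1 and Mbd1 KO 2 and at 81.1 and 76.5 in WT 1 and WT 2, with scores of 59.8, 53.6, 31.1 and 26.2. On chromosome 12 (114239020 to 114239031) the percentiles were 90.4 and 92.8 against 79.3 and 75.1, and on chromosome 13 (46470859 to 46470923) they were 90.4 and 91.5 against 78.4 and 80.03. These 3 are the regions with both Mbd1 KO percentiles above 90, and their gaps were 11.1, 11.1 and 10.4 points. The next were on chromosome 4 (147222572 to 147222579), at 90.4 and 89.7 against 78.4 and 73.6, and on chromosome 14 (82713501 to 82713628), at 90.6 and 89.5 against 68.5 and 79.3. All 5 stood in the upper part of the shared ranking in every library, so the site was strong in the WT libraries as well.

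How the regions just inside and just outside the limit differ is a matter of hundredths of a point. The last regions inside were on chromosome 1 (172968162 to 172968235, gap 10.05), chromosome 17 (7952845 to 7952874, gap 10.05) and chromosome 3 (139911871 to 139912015, gap 10.01). The first regions outside, all with a gap of 9.97, were on chromosome 14 (88261456 to 88261484 and 87298873 to 87298947) and chromosome 2 (167515965 to 167516033). The first of these stood at 35.9 and 56.6 in the Mbd1 KO libraries and 21.2 and 25.9 in the WT libraries, values much like those of regions that were kept.

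By overall strength, the mean percentile of the 4 libraries, the KO-higher regions had a median of 40.04 (quartiles 27.7 and 53.7), against 48.0 (27.5 and 72.6) for all shared regions. They were 1.35% of the weakest decile of shared regions, 6.17% to 6.54% of the third to the sixth decile, 2.33% of the eighth and 0.489% of the ninth. The strongest decile, of 2660 regions, held 0. The other 5 counts had the same form, with 0 in the strongest decile and their highest shares in the third to the sixth. In the fourth decile the KO-higher regions held 6.28%, below the 6.81% to 7.86% of the other 5. In the other deciles their share lay within the range of the 5.

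**Figure D4:**
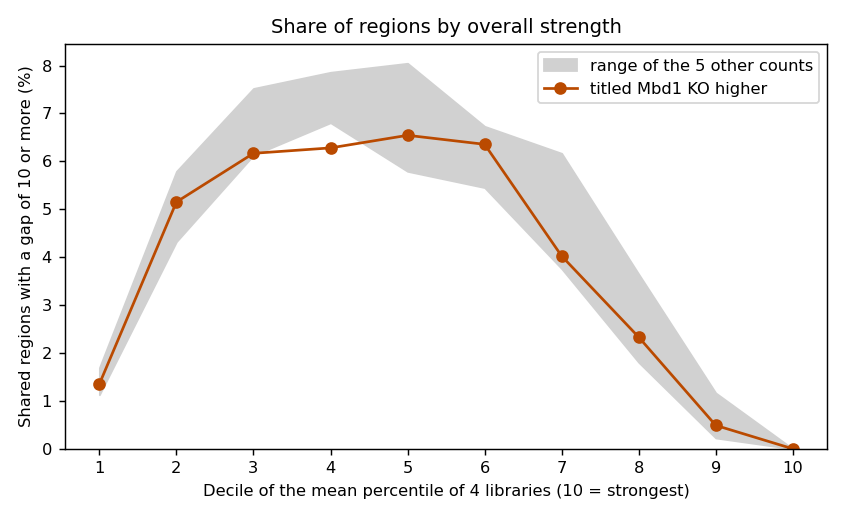
Share of shared regions that were KO-higher (line and points, vertical axis, in percent) by decile of the mean percentile of the 4 libraries (horizontal axis), with the range of the same share for the 5 other pairs of libraries in grey. The line runs from 1.35% in the weakest decile over 6.54% in the fifth to 0 in the strongest, and lies below the grey range in the fourth.

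Every chromosome except Y and the mitochondrial one held KO-higher regions. The share of shared regions that were KO-higher was highest on chromosome 10 (71 of 1464, 4.85%), followed by chromosomes 13 (53 of 1176, 4.51%), 12 (54 of 1210, 4.46%) and 1 (89 of 2016, 4.42%). It was lowest among the numbered autosomes on chromosome 8 (42 of 1401, 2.998%), and on chromosome X it was 2.26% (11 of 487). The other 5 counts ran from 3.48% to 4.65% on chromosome 10, from 3.36% to 4.71% on chromosome 8 and from 2.88% to 6.37% on chromosome X. The KO-higher share was thus the highest of the 6 on chromosome 10 and the lowest on chromosomes 6, 8, 15, 18, 19 and X. These are counts over regions of the same 4 libraries and no test was run.

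KO-higher regions were scattered. They fell into 806 windows of 1 Mb, of 2472 windows that held a shared region, and 27 windows held 3 or more, against 33 to 68 windows in the other 5 counts. The window with the most was on chromosome 16 (44000001 to 45000000), with 5 KO-higher regions among 23 shared ones and 0 in the opposite direction. In the other 5 counts the most in 1 window ran from 4 to 12. These 5 lay at 44204656 to 44204711, 44248301 to 44248345, 44347485 to 44347512, 44717159 to 44717234 and 44768229 to 44768272. Their gaps were 20.9, 11.5, 18.3, 14.3 and 23.7 points, and the last stood at 38.8 and 37.3 in Mbd1 KO 1 and Mbd1 KO 2 against 5.70 and 13.6 in WT 1 and WT 2. They were not neighbours in the list of shared regions except for the first and second. Between them lay regions of the opposite order in Mbd1 KO 1: the shared region at 44746493 to 44746531 stood at 67.6 and 41.6 in the WT libraries and at 13.5 and 31.9 in Mbd1 KO 1 and Mbd1 KO 2.

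A window on chromosome 10 (45000001 to 46000000) held 4 KO-higher regions among 17 shared ones, and 3 regions of the opposite direction as well. The 4 were at 45388215 to 45388256, 45504655 to 45504709, 45530940 to 45530984 and 45767528 to 45767566. The last had the widest gap, 24.0 points, with 50.6 and 38.9 in the Mbd1 KO libraries and 3.03 and 14.9 in the WT libraries. The third stood low in all 4 libraries, at 26.1 and 33.2 against 11.1 and 9.42. With regions of both directions in the window, its summits did not move as a block.

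Shared regions that lay near a KO-higher region but were not KO-higher themselves stood near the level of all shared regions. Within 250 to 1000 bp there were 36 such neighbours, and the mean Mbd1 KO minus the mean WT percentile had a median of −1.35 points (quartiles −6.59 and 4). From 1 to 5 kb there were 119 with a median of −1.13, and from 5 to 20 kb 493 with a median of −0.02. Over all shared regions the median was 0.03 (quartiles −6.45 and 6.63). Of the 36 nearest neighbours 38.9% ranked higher on average in the Mbd1 KO libraries, against 50.2% of all shared regions. Leaving out neighbours that are KO-higher themselves can lower these values. Around the regions higher in the titled WT pair, 61 neighbours within 250 to 1000 bp had a median of 0.62. From 1 to 5 kb the 227 neighbours there had a median of −1.72, also below that of all shared regions. Another KO-higher region lay within 5000 bp of 8 of the 1029 (0.778%), against 164 of all shared regions (0.617%).

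**Figure D5:**
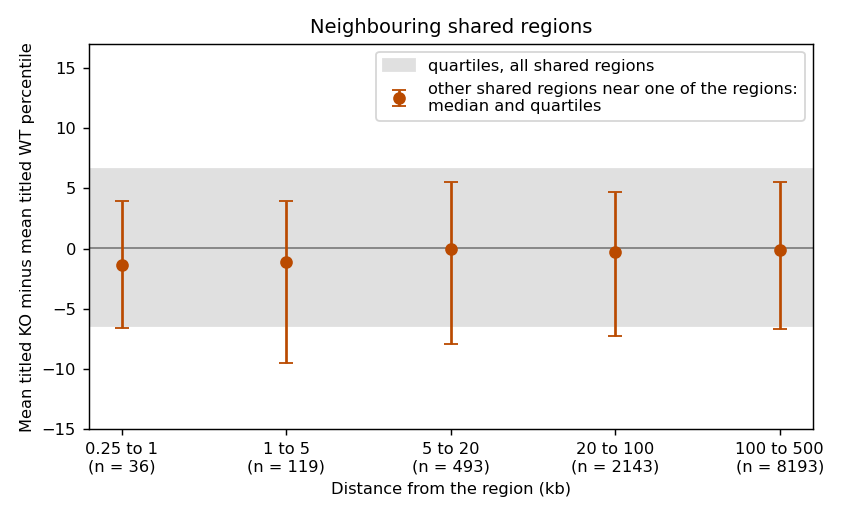
Difference between the mean titled Mbd1 KO and the mean titled WT percentile (vertical axis, percentile points) of other shared regions. They are grouped by distance from any KO-higher region (horizontal axis, kb), as medians with quartiles. A region near several KO-higher regions can be in more than 1 group. The grey band gives the quartiles of all shared regions. The medians run from −1.35 to −0.02, at or just under the 0.03 of all shared regions.

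In form the KO-higher regions resembled other shared regions. The first and last summit of a region lay a median of 43 bp apart, counted with both ends, against 41 bp for all shared regions, and 1027 of the 1029 had exactly 1 summit in every library (99.8%, against 99.8% of all). The mean summit position of the Mbd1 KO libraries differed from that of the WT libraries by a median of 15 bp in either direction, against 14 bp over all shared regions. The distance between the summits of Mbd1 KO 1 and Mbd1 KO 2 had a median of 17 bp (19 bp over all), and that between WT 1 and WT 2 a median of 23 bp (19 bp over all). A joined summit in every library and a difference in score rank were conditions of the rule, so neither is a result about these regions.

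KO-higher regions lay somewhat further from other shared regions than shared regions in general did. The nearest other shared region was a median of 23.9 kb away, against 21.6 kb for all shared regions, and 147 of the 1029 (14.3%) had one within 5000 bp, against 17.6%. In the other 5 counts the median distance ran from 20.25 to 23.71 kb, and the share with a shared region within 5000 bp from 16.7% to 20.4%. A region called in both Mbd1 KO libraries and in neither WT library lay within 5000 bp of 12 KO-higher regions (1.17%), against 1.91% of all shared regions and 1.70% to 2.26% in the other 5 counts. Calls specific to the titled Mbd1 KO pair were thus no more frequent near these regions than near shared regions at large. The medians of overall strength given above also differ between KO-higher and all shared regions, and the part of strength in the distances was not tested.

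Summits outside the regions allowed 1 test over libraries. Those flanking summits include summits of other shared regions, which every library has by definition and whose scores entered the ranking. In WT 1 and WT 2, 20.9% and 23.4% of the KO-higher regions had another summit of the same library between 250 and 5000 bp away, against 23.4% and 26.2% of the other shared regions. In Mbd1 KO 1 and Mbd1 KO 2 the shares were 25.5% and 24.4%, against 28.0% and 27.7%. The ratio of the share around KO-higher regions to that around other shared regions was 0.892 in WT 1, 0.895 in WT 2, 0.909 in Mbd1 KO 1 and 0.88 in Mbd1 KO 2. The Mbd1 KO libraries had both the highest and the lowest ratio. Their mean of 0.894 ± 0.020 differed from the WT mean of 0.894 ± 0.0021 (SD, n = 2 each) by 0.0008, which is less than the spread between the Mbd1 KO libraries (exact permutation p = 1, two-sided; 2 libraries against 2 cannot give a p below 0.33). With flanking summits of shared regions left out, a setting chosen later with the data in view, the ratios were 0.948 in WT 1, 0.939 in WT 2, 0.932 in Mbd1 KO 1 and 0.936 in Mbd1 KO 2. The difference between the means was then −0.0095 (exact permutation p = 0.333, two-sided, the smallest possible), so its direction depended on this choice. In both settings the ratio was below 1 in all 4 libraries.

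Rank within the shared set and rank within the whole list gave different numbers. When the percentile of a shared region was taken among all summits of its library, 2265 regions were higher in the titled Mbd1 KO pair and 139 in the titled WT pair, and 916 of the 1029 KO-higher regions (89.0%) were among the 2265. The lists titled Mbd1 KO are longer than those titled WT, and the part of list length in these counts was not tested. With summits scoring under 10 left out the counts were 673 and 705, with 421 of the 1029 (40.9%) kept. In lists shortened to the 38142 summits of WT 1 they were 1025 and 1054, with 966 of the 1029 (93.9%) kept. Under the joining distances of 100 and 1000 bp, 1009 and 980 of the 1029 were kept.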

How the data were processed

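FAIRE-seq summits of 4 libraries, 2 titled WT and 2 titled Mbd1 KO, were analysed. Per the submitters' processing notes, the tools were Bowtie, SAMtools and MACS2 (no versions) and the build was mm9; peak thresholds, read filters and the use of an input are not stated. The authors deposited 1 list of summits per library, each with a score that was read as −log10 of the p or q of MACS2. Summit positions are 1-based. The last summit on chromosome 7, at 152520671, lies past the last gene end of the GRCm38 table at hand (145324059), so no gene, promoter or sequence was assigned.

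Summits within 250 bp were joined, and shared regions were ranked in each library by highest score, with ties at their mean rank. Members and measures were chosen with earlier results of these data known. Named were the 10 widest gaps, the 5 highest lower Mbd1 KO percentiles, the 1 Mb windows with 4 or more members, and 3 regions on either side of the limit. Regions close to each other, and the region of opposite order on chromosome 16, were chosen after their values were seen. The planned cell type marker lists need an mm9 annotation and were not used. The code of the rule was run on simulated lists, which lacked the ties of the real scores. That run checks the code only and is no support for the regions found here. The only test was an exact two-sided permutation of 2 libraries against 2. Scripts ran under scipy 1.17.1, pandas 2.3.3, numpy 2.4.6, matplotlib 3.10.9 and Python 3.11.15.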

Additional observations from a re-analysis of the deposited data

How the results depend on the processing

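The numbers of regions higher in the titled Mbd1 KO and WT pairs were 1029 and 1080. They became 2005 and 2079 at a gap of at least 5, 231 and 231 at a gap of at least 20, 673 and 705 with summits scoring under 10 left out (fewer regions are then tested), and 2265 and 139 when percentiles were taken among all summits of a library. With a replicate block, which asks only that both same-numbered pairs reach the gap, they were 1684 and 1851. The labels give no origin for the numbers, and WT 1 minus WT 2 correlated with Mbd1 KO 1 minus Mbd1 KO 2 at 0.066 over shared regions. Without 1 library, which leaves fewer conditions to meet, the counts ran from 2957 (without Mbd1 KO 2) to 3731 (without WT 1) for Mbd1 KO and from 3203 (without Mbd1 KO 1) to 3702 (without WT 1) for WT. In the 2 libraries whose labels agree, an alternative added after the data were seen, they were 7667 and 7714. The groups of the genotype field gave 1236 and 1194, which by construction share no region with the titled sets. Joining distance, equal list length, summed scores, autosomes alone and single-summit regions moved neither count by over 1.5 times. For the flanking summits, the higher regions were chosen anew under each grouping, joining distance, list length, score limit or choice of libraries. Values under those settings thus describe sets other than the 1029. The difference in the ratio of flanking summits, 0.0008, came to 0.0543 around the 1236 regions of the genotype field grouping (exact permutation p = 0.333, the smallest possible). It was 0.0327 with flanks up to 2000 bp and 0.0284 with summits scoring under 10 left out. It turned to −0.0048 at a joining distance of 1000 bp, to −0.027 in lists of equal length, to −0.006 with flanks up to 10000 bp and to −0.0095 with flanking summits of shared regions left out, an alternative added after the data were seen; the cause was not tested. It ran from −0.013 (without Mbd1 KO 2) to 0.0381 (without WT 2) with 1 library left out, and same-numbered pairs gave 0.0164 and −0.0149. With 2 libraries a group this test cannot pass 0.05, and without read depth no counting error can be set on a score.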

Other observations

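On the raw scores, 8045 shared regions (30.3%) scored higher in both Mbd1 KO libraries than in both WT libraries and 1868 (7.03%) the opposite way, whereas by percentile rank the numbers with a gap of at least 10 were 1029 and 1080. The raw scores were not scaled between libraries, and the median score of the shared regions was also higher in the Mbd1 KO libraries.

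KO-higher regions lay within 5000 bp of each other in 4 places. These held 8 of the 1029 (0.778%), near the 0.617% of all shared regions that had another KO-higher region within that distance. The closest were on chromosome 12, at 108330381 to 108330452 and 108331812 to 108331828, 1360 bp apart with gaps of 32.0 and 10.1 points. On chromosome 8 the regions at 80305284 to 80305313 and 80308485 to 80308630, 3172 bp apart, had gaps of 22.8 and 22.9 points, the most even of the 4 places. The others were on chromosome 17 (45074247 to 45074304 and 45076961 to 45076992, gaps of 23.6 and 14.6) and on chromosome 12 (88110105 to 88110167 and 88113191 to 88113251, gaps of 20.5 and 10.5).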
